A study of Mus musculus with 12 samples.

Results

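Endothelial cells, which line the vessels, pass fatty acids from the blood to the tissue behind them, and 10 genes of that path are described here in 12 RNA-seq libraries of sorted mouse endothelial cells. The genes were taken by symbol from the deposited table of 27825 genes: Cd36, Fabp4, Fabp5, Gpihbp1, Lpl, Slc27a1, Slc27a3, Slc27a4, Tcf15 and Meox2. Each symbol matched 1 row, and the 10 genes were among the 22238 genes with a mean of at least 10 normalized counts, which entered the tests. The rule itself reads symbols, not measured values, but the 10 genes were chosen with earlier results of these data known. Their counts beside the share of all genes are therefore a description. Male mice of the genotype ROSA26-eYFP+/+ Cdh5-CreERT2+ were fed tamoxifen for 2 weeks, starting at an age of 6 weeks. At an age of 8 weeks they were put on normal chow (NC, 5.8% fat) or a high fat diet (HFD, 60% fat) for 12 to 13 weeks. Cells were then sorted from mesentery (Mes), the sheet that carries the vessels of the gut, or from epididymal fat pads (Epi). The groups NC Mes, HFD Mes, NC Epi and HFD Epi hold 3 libraries each, named A, B and C, and each library pools tissue of 6 mice.

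The model has limits that the groups share. Animals of each group carry the reporter and the Cre and had tamoxifen. The Cdh5 promoter drives the Cre, so the label marks cells in which it was active during tamoxifen, together with their descendants, in arteries, capillaries, veins and lymphatics alike. Mesentery and fat pad were digested whole, so vessels of different kinds were not separated. The protocol speaks of 2 independent replicates while the titles give 3 letters, and nothing says how the pools relate. The p-values therefore measure the spread between these libraries.

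As background, lipoprotein lipase, made mostly by fat and muscle cells, frees fatty acids from circulating triglyceride at the capillary wall, where GPIHBP1 carries and anchors it on the endothelial surface. CD36 takes the freed fatty acids up, the transporters of the SLC27 family help to take up and activate them, and the small binding proteins FABP4 and FABP5 hold them inside the cell. The transcription factors MEOX2 and TCF15 have been described in heart capillaries as partners that raise genes of this path. PPAR-gamma is a known activator of Cd36, Fabp4 and Lpl in fat tissue.

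Recovered read totals ranged from 8348897 to 25397963 per library, and the 10 genes had at least 41 reads in every library. The mitochondrial share of reads ran from 5.67% to 20.6% in mesentery and from 2.50% to 5.94% in epididymal fat. Summed over 12 endothelial markers, levels were 118424 to 171386 normalized counts in NC Mes, 113108 to 132319.6 in HFD Mes, 85102 to 103210.0 in NC Epi and 46699 to 89341 in HFD Epi. The labelled cell type thus had its markers in every library, and none was at 0 throughout a group. Other lists summed higher than the endothelial one in some libraries. Macrophage markers summed to 153482 to 385868 in HFD Epi. Pancreatic acinar markers summed to 280268 in NC Mes A, 211663 in NC Mes B and 134563 in HFD Mes A. The lists differ in their genes, so the sums do not give shares of cells. Library NC Mes C stood apart, with 13032 summed normalized counts of lymphatic markers against 1332 and 1522 in NC Mes A and B. HFD Epi A had the lowest summed endothelial markers of the 12 libraries. Because these are bulk samples, fewer cells of a type and less RNA per cell cannot be told apart.

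Levels of the 10 genes differed widely. Fabp4 alone took 0.825% ± 0.114 (SD, n = 3) of all reads in NC Mes, 1.01% ± 0.206 in HFD Mes, 2.91% ± 0.827 in NC Epi and 2.34% ± 0.451 in HFD Epi. Divided by the length of the principal transcript, its level in NC Epi was 469901 ± 120692 normalized counts per kilobase, the first of 26827 genes ranked by that measure, and it was also the first in HFD Epi. Gpihbp1 followed in NC Epi with 82031 ± 5637 per kilobase, Cd36 with 37486 ± 8151 and Fabp5 with 14939 ± 7136. Cd36 and Gpihbp1 change places when the union of all exons is taken as the length (35492 and 26498 per kilobase), and Fabp5 (4134) then falls below Tcf15 (5872), so the order of neighbours depends on the length used. By both lengths Fabp4 was the highest of the 10 in NC Epi. Per kilobase of principal transcript, Tcf15 came next at 5872 ± 348, then Lpl at 3902 ± 492 and Meox2 at 1420 ± 196. The SLC27 transporters were the lowest 3, with Slc27a3 at 120 ± 21.2, Slc27a1 at 115 ± 38.3 and Slc27a4 at 22.8 ± 1.18 per kilobase; the first pair did not differ beyond its spread, but the exon union gave 105 and 55.1.

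**Figure D1:**
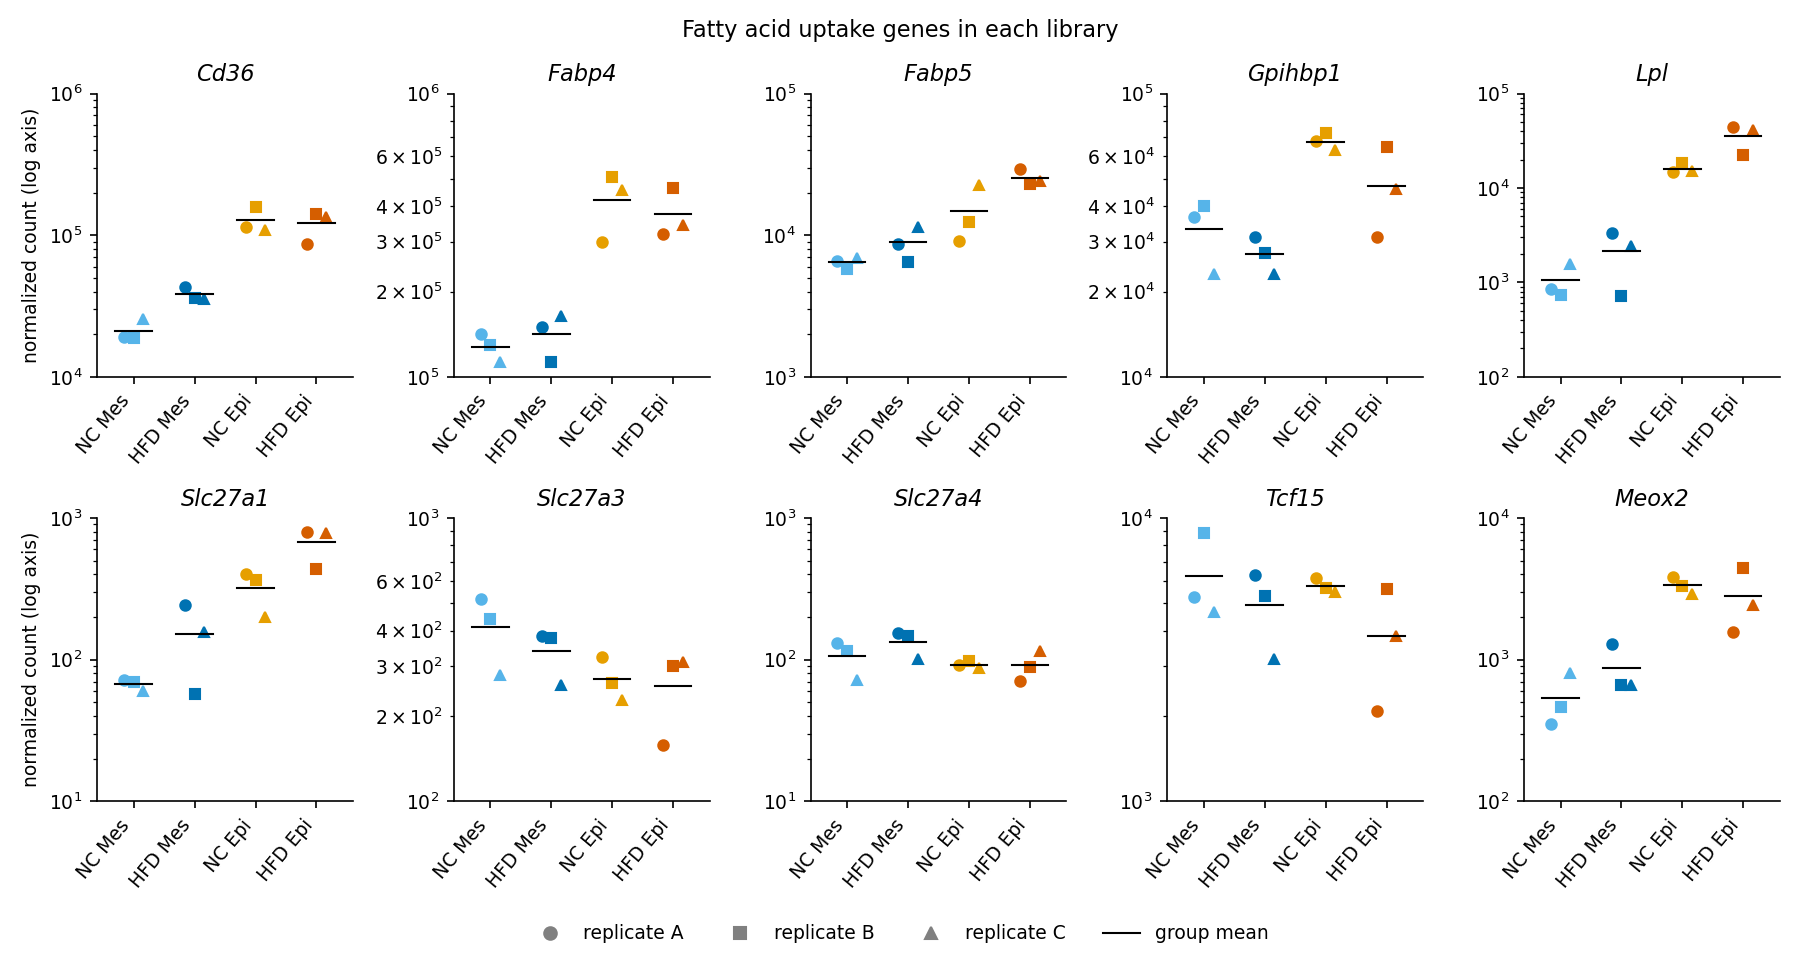
Normalized counts of the 10 genes in each of 12 libraries, on log axes, by tissue and diet; symbols are replicates and bars are group means of 3 libraries. For Cd36 the epididymal libraries lie between 86853 and 159288 and the mesenteric ones between 18648 and 42867.

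Promoter sequences of these genes were read as a description, and their part in the levels was not tested. RefSeq entries of the build GRCm38.p6 gave windows of 250 bases upstream of a start for 5 of the 10 genes, in 7 entries. The window of Cd36, whose tissue difference is described next, and that of Meox2, a described regulator of the path, are shown 5′ to 3′ on the gene's strand. Capitals mark matches to the motifs searched. Cd36 is chr5:17835897-17836146 on the minus strand and Meox2 is chr12:37108290-37108539 on the plus strand.
Cd36: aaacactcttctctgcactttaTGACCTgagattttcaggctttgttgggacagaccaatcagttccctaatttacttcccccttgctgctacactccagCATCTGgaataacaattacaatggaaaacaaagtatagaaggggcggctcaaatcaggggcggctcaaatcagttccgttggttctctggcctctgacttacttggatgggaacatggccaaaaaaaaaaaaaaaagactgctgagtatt
Meox2: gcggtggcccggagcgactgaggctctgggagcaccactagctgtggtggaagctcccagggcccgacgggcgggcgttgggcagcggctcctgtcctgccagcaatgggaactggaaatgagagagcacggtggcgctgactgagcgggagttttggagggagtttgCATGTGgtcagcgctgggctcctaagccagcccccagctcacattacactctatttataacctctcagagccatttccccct
Both windows lie outside annotated exons in GENCODE M21. The bases that follow the Meox2 start are found in a GENCODE M21 transcript of that gene. Those that follow this RefSeq start of Cd36 are not, and its window lies in introns of longer Cd36 transcripts. The search covered both strands for AGGTCA, the element bound by nuclear receptors, and its repeat AGGTCANAGGTCA, the element of PPAR and RXR pairs. It also covered the E-box CANNTG, bound by factors of the TCF15 family, and the homeobox letters TAATTA. Cd36 held AGGTCA read on the other strand as TGACCT, starting 228 bases upstream, and an E-box CATCTG 150 bases upstream. Meox2 held an E-box CATGTG 82 bases upstream. Each of the 7 windows held an E-box. Neither the AGGTCA repeat nor TAATTA was found in any of the 7 windows. Among 32851 promoter windows of the same length, 14.0% held AGGTCA, 0.0335% the repeat, 66.2% an E-box and 4.84% TAATTA, so the E-boxes are common letters. A match describes the letters only.

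The first comparison asked how the path differed between the cells sorted from epididymal fat and from mesentery. Cd36, Lpl, Meox2, Slc27a1 and Fabp5 were higher in epididymal fat on both diets. On chow the differences ran from 2.14-fold for Fabp5 to 16-fold for Lpl. Under high fat feeding they ran from 2.92-fold for Fabp5 to 19.0-fold for Lpl. In neither diet did any of the 10 pass as lower. The count called at an adjusted p under 0.05 (limma, Benjamini-Hochberg over all tested genes) was 5 of 10 on each diet, against 12.8% of all 22238 genes on chow and 8.34% under high fat feeding. The high fat count was 2 without HFD Mes B and 3 without HFD Epi C. The median difference of the 10 genes, as epididymal fat minus mesentery, was 1.39 on the log2 scale on chow and 1.48 under high fat feeding, beside -0.08 and 0.06 over all genes tested. For 7 of the 10 genes the 3 epididymal libraries did not overlap the 3 mesenteric ones on chow, and again for 7 under high fat feeding. The same lack of overlap was found for 28.7% of all genes on chow and 26.4% under high fat feeding.

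Cd36 encodes the scavenger receptor that takes up long-chain fatty acids. Its normalized counts in libraries A, B and C were 19127, 18648 and 25639.6 in NC Mes and 113848, 159288 and 109109 in NC Epi. In the high fat groups they were 42867, 36206 and 35237 in mesentery and 86853, 141583 and 134265 in epididymal fat. Every epididymal library was above every mesenteric one, whatever the diet. The means on chow were 21138 ± 3906 (SD, n = 3) in mesentery and 127415 ± 27704 in epididymal fat. The log2 difference on chow was 2.59 (SE 0.34, adjusted p 0.000298, limma), a 6.00-fold difference. On the high fat diet it was 1.64 (SE 0.34, adjusted p 0.0101), or 3.11-fold. Without HFD Mes B the adjusted p on the high fat diet was 0.0588, and without HFD Epi C it was 0.0532.

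Lpl encodes lipoprotein lipase itself and showed the widest tissue difference of the 10. Normalized counts in A, B and C were 855, 739 and 1563 in NC Mes, and 14614, 18368 and 15184 in NC Epi. The high fat libraries had 3308, 723 and 2422 in mesentery and 43887, 22122 and 40823 in epididymal fat. The lowest epididymal library was thus several times the highest mesenteric one. The log2 difference was 4.0 (SE 0.47, adjusted p 0.000128) on chow and 4.25 (SE 0.47, adjusted p 0.000112) under high fat feeding. Slc27a1, a fatty acid transporter best known from muscle and fat, had 71.7, 69 and 60.5 normalized counts in NC Mes and 403, 362 and 200.2 in NC Epi. With high fat feeding it had 245, 56.8 and 156 in mesentery and 798, 438 and 788 in epididymal fat. Its groups did not overlap on either diet. The log2 difference was 2.19 (SE 0.46, adjusted p 0.00686) on chow and 2.32 (SE 0.46, adjusted p 0.00735) under high fat feeding.

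Meox2 encodes a homeobox factor of capillary endothelium. It had 351, 461 and 804 normalized counts in NC Mes, and 3829, 3319.7 and 2904 in NC Epi. The high fat libraries had 1291, 667 and 666 in mesentery and 1565, 4429 and 2425 in epididymal fat. The tissue groups did not overlap on either diet, but on the high fat diet HFD Epi A and HFD Mes A lay close together. The log2 difference was 2.71 (SE 0.38, adjusted p 0.000507) on chow and 1.62 (SE 0.38, adjusted p 0.0201) under high fat feeding. The call on the high fat diet was lost without HFD Mes B (adjusted p 0.0955), HFD Mes C (0.0605), HFD Epi B (0.0762) or HFD Epi C (0.0699). It was also lost when the columns were rescaled to the same total (adjusted p 0.0622) or the mean-variance trend was left out (0.0784). Tcf15 encodes the partner factor, and it did not follow this pattern. Its normalized counts ranged from 4655 to 8857 in NC Mes and from 5484 to 6137 in NC Epi, and the groups overlapped. The log2 difference of Tcf15 on chow was -0.06 (95% interval -0.83 to 0.70, adjusted p 0.937). Among the high fat libraries, with 3173 to 6274 in mesentery and 2085 to 5609.9 in epididymal fat, it was -0.41 (95% interval -1.18 to 0.35, adjusted p 0.615).

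**Figure D2:**
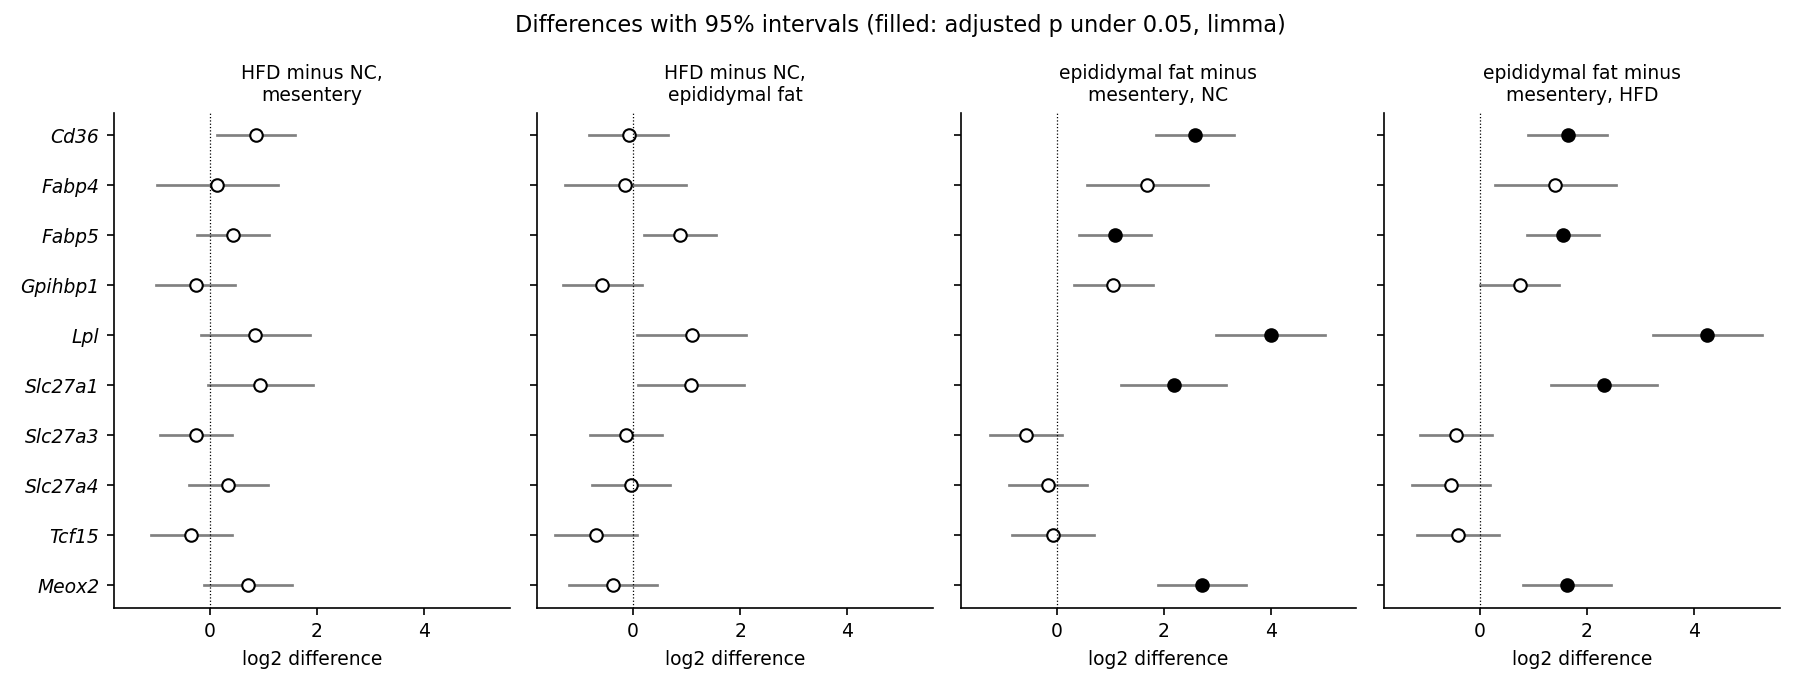
Log2 differences of the 10 genes with 95% intervals, for the effect of diet in each tissue and of tissue on each diet; filled points have an adjusted p under 0.05 in limma. The filled points are the 5 genes higher in epididymal fat on each diet, and no diet difference is filled.

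Fabp5 encodes a binding protein found in many cell types. Its normalized counts were 6530.4, 5803 and 6941 in NC Mes, and 9154, 12425 and 22655 in NC Epi. Under high fat feeding they were 8729.6, 6446 and 11491 in mesentery and 29412, 22833 and 24051 in epididymal fat. The tissue groups did not overlap on either diet. The log2 difference was 1.10 (SE 0.31, adjusted p 0.0345) on chow and 1.55 (SE 0.31, adjusted p 0.00844) under high fat feeding. The chow call was lost without NC Mes A (adjusted p 0.0967), NC Mes B (0.102), NC Epi B (0.0809) or NC Epi C (0.0987). It was lost as well with the columns rescaled to the same total (0.0547) and without the mean-variance trend (0.0801). The high fat call was lost without HFD Mes B (adjusted p 0.0570). Fabp5l2, a copy of Fabp5 by its name, has no row among the deposited genes. Reads could be shared with that copy, so the level of Fabp5 is uncertain.

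Fabp4, the binding protein of fat cells and capillary endothelium, and Gpihbp1, the anchor of lipoprotein lipase, did not pass the test. Fabp4 had 141724, 129379 and 112419 normalized counts in NC Mes and 299542, 506767 and 456785 in NC Epi. In the high fat groups it had 149287, 113023 and 163411 in mesentery and 319411, 465212 and 344598 in epididymal fat. Each epididymal library was above each mesenteric one. The log2 difference was 1.69 (SE 0.52, adjusted p 0.0505) on chow and 1.40 (SE 0.52, adjusted p 0.129) under high fat feeding. Gpihbp1 had 36760.2, 40171 and 22988 in NC Mes and 67761, 72283 and 62983 in NC Epi. The high fat libraries had 31031, 27355 and 23099.9 in mesentery and 31061, 64731 and 45975 in epididymal fat. Those high fat groups were separated by the small gap between HFD Mes A and HFD Epi A. The log2 difference of Gpihbp1 was 1.06 (SE 0.34, adjusted p 0.0589) on chow and 0.75 (SE 0.34, adjusted p 0.231) under high fat feeding. DESeq2 on the recovered reads called both genes on both diets, with adjusted p 9.26e-12 and 5.36e-08 for Fabp4 and 0.00179 and 0.0209 for Gpihbp1. edgeR called Fabp4 on chow (adjusted p 0.0135).

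Slc27a3 and Slc27a4, the remaining transporters, had overlapping groups. Slc27a3 ranged from 279 to 517 normalized counts in NC Mes and from 228 to 322 in NC Epi. Its log2 difference was -0.57 (95% interval -1.25 to 0.10, adjusted p 0.283) on chow and -0.45 (-1.12 to 0.23, adjusted p 0.495) under high fat feeding. Slc27a4 ranged from 71.8 to 132 in NC Mes and from 87.8 to 97.3 in NC Epi. Its log2 difference was -0.16 (95% interval -0.89 to 0.57, adjusted p 0.824) on chow and -0.55 (-1.28 to 0.19, adjusted p 0.421) under high fat feeding. These intervals hold both lower and higher levels, so the transporters were not shown to be alike in the tissues.

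Of the 12 endothelial markers, 6 were called lower and 1 higher in epididymal fat on chow, and 8 and 1 under high fat feeding. Of 7 capillary markers, 2 were called higher and 2 lower on each diet. Markers of other cells moved with the tissue as well. Summed over 10 adipocyte markers, levels were 4031 to 6545 normalized counts in NC Mes and 63917 to 86960.1 in NC Epi, with 9 of the 10 called higher on chow. On the high fat diet the same sums overlapped, at 4249 to 8904 in mesentery and 4099 to 14384 in epididymal fat, and 0 of 10 were called by limma. The log2 tissue differences on chow and then under high fat feeding were 2.59 and 1.64 for Cd36, 2.71 and 1.62 for Meox2, 4.0 and 4.25 for Lpl, 2.19 and 2.32 for Slc27a1, and 1.10 and 1.55 for Fabp5. Summed over 13 macrophage markers, levels were 2184 to 12057 in NC Mes and 7784 to 95869.5 in NC Epi, with 5 of 13 called higher. With high fat feeding they were 7064 to 29105 in mesentery and 153482 to 385868 in epididymal fat, with 10 of 13 called higher. Other lists moved with the tissue too: fibroblast markers (6 of 7 called higher on chow, 7 of 7 under high fat), smooth muscle and pericyte markers (6 and 4 of 8) and lymphatic markers (5 and 0 of 7). Of the lymphatic markers, 1 of 7 was called lower on each diet. Their sums did not overlap under high fat feeding, at 2818 to 4759 in mesentery and 11831 to 18154 in epididymal fat. Mesothelial markers (3 and 0 of 4) and red blood cell markers (4 and 4 of 4) were also called higher. Red blood cell markers summed to 177 to 411 in mesentery and 31944 to 44020 in epididymal fat. Pancreatic acinar markers summed to at least 44577 in mesentery and at most 554 in epididymal fat. The part of these cells in the tissue differences was not tested. No marker of either list was at 0 throughout a group. Adipocytes and macrophages also express Lpl, Cd36, Fabp4 and Fabp5.

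**Figure D3:**
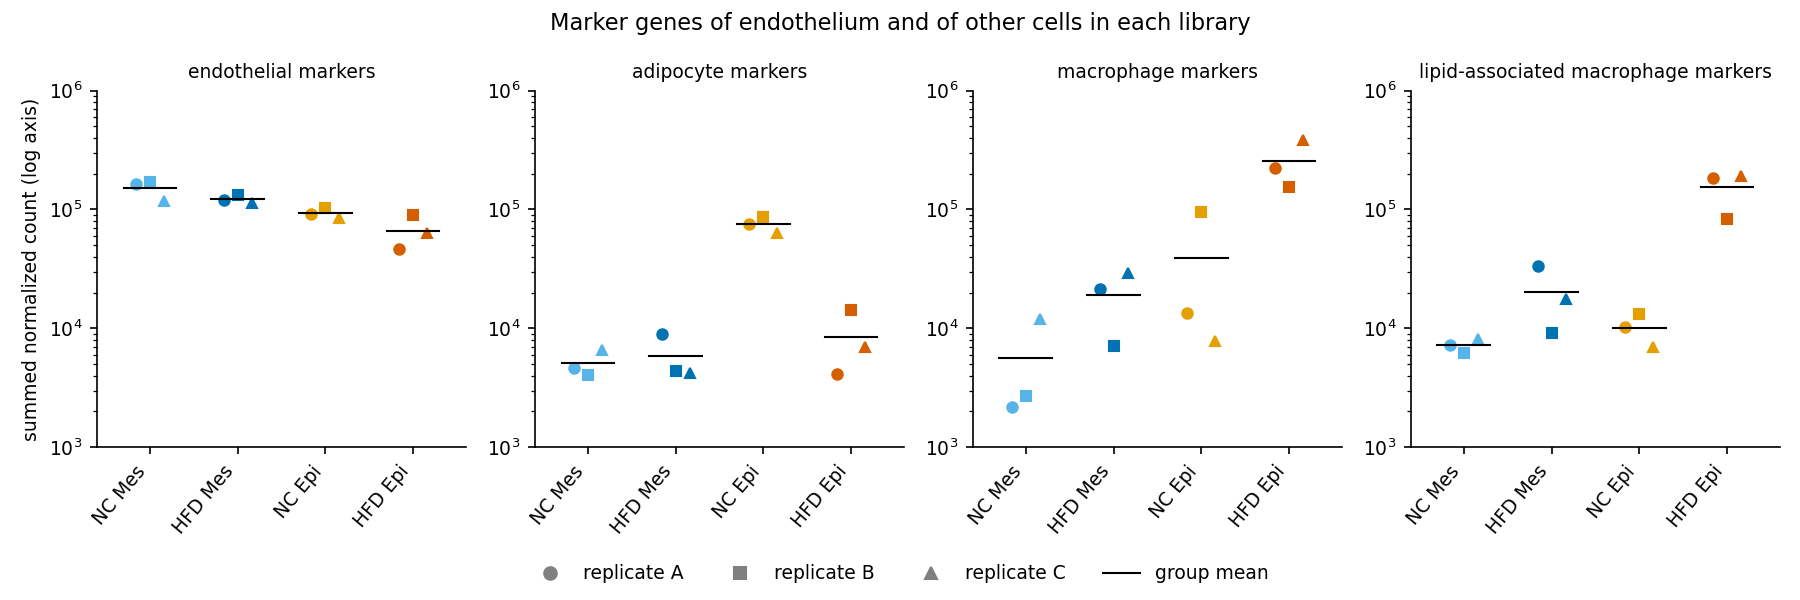
Summed normalized counts of marker genes of endothelium, adipocytes, macrophages and lipid-associated macrophages in each of 12 libraries, on log axes, with group means as bars. Adipocyte markers are high in NC Epi alone, at 63917 to 86960.1, and lipid-associated macrophage markers are high in HFD Epi, at 83499 to 191755.

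The second comparison asked what the high fat diet changed. None of the 10 genes was called by limma in either tissue. The share of all genes called was 0.0135% in mesentery (3 genes) and 0.549% in epididymal fat (122 genes). At an unadjusted p below 0.05 there was 1 member in mesentery, against 6.15% of all genes, and 3 in epididymal fat, against 6.94%. DESeq2 called 1 of the 10 in mesentery and 0 in epididymal fat, and edgeR called 0 in both. The median diet difference of the 10 was 0.39 in mesentery and -0.11 in epididymal fat, beside -0.0023 and 0.10 over all genes tested.

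In mesentery the gene with an unadjusted p under 0.05 was Cd36. Its high fat libraries, at 35237 to 42867 normalized counts, lay above its chow libraries, at 18648 to 25639.6, without overlap. It was the single gene of the 10 whose diet groups did not overlap there, against 9.61% of all genes. The log2 difference was 0.86 (SE 0.34, 95% interval 0.13 to 1.59, adjusted p 0.718), or 1.82-fold. DESeq2 gave an adjusted p of 0.0307 for it, the single pass among its 18 alternatives. The log2 differences of Slc27a1 (0.94, adjusted p 0.836), Lpl (0.85, adjusted p 0.881) and Meox2 (0.71, adjusted p 0.871) in mesentery were of like size with overlapping groups. Gpihbp1 (-0.26), Slc27a3 (-0.25) and Tcf15 (-0.34) had values below 0. Fabp4 (0.14), Fabp5 (0.43) and Slc27a4 (0.35) made up the rest. The sums of lipid-associated macrophage markers did not overlap there either, at 6249.7 to 8217 normalized counts in NC Mes and 9104 to 33464 in HFD Mes. By mean log2 the groups did overlap, with NC Mes C at 8.34 and HFD Mes B at 7.73. Of these markers 0 of 6 were called by limma. Adipocyte sums overlapped, at 4031 to 6545 normalized counts in NC Mes and 4249 to 8904 in HFD Mes. Their mean log2 did not, at 6.88 to 6.97 in NC Mes and 7.29 to 8.33 in HFD Mes. Limma called 1 of 10 adipocyte markers higher, against 0.0135% of all genes. The part of either cell type in the Cd36 value was not tested.

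In epididymal fat the genes with an unadjusted p under 0.05 were Lpl, Slc27a1 and Fabp5. Their high fat libraries lay above their chow libraries without overlap, 3 of 10 genes against 13.5% of all genes. The log2 differences were 1.09 for Lpl (95% interval 0.08 to 2.11, adjusted p 0.627), 1.08 for Slc27a1 (0.09 to 2.06, adjusted p 0.605) and 0.88 for Fabp5 (0.21 to 1.56, adjusted p 0.386). Gpihbp1 (-0.58), Tcf15 (-0.70) and Meox2 (-0.38) had values below 0 with overlapping groups. HFD Epi A was the lowest of the 6 epididymal libraries for each of these last genes, and it also had the lowest endothelial marker sum. Cd36 (-0.09) and Fabp4 (-0.15) lay near 0, as did Slc27a3 (-0.13) and Slc27a4 (-0.04).

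Markers of lipid-associated macrophages, the foamy cells that gather in fat of obese animals, stood beside these epididymal values. Summed over 6 of them, levels were 6942 to 13089 normalized counts in NC Epi and 83499 to 191755 in HFD Epi, and 4 of 6 were called higher (limma). Within HFD Epi, libraries A and C had the higher sums, 185088 and 191755, and also the higher Lpl and Slc27a1, while B was lowest in each. The adipocyte sums moved the other way, with 3 of 10 adipocyte markers called lower. The part of these cells in the values of Lpl, Slc27a1 and Fabp5 was not tested.

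The third comparison asked whether the diet effect differed between the tissues. The wider gaps were those of Meox2, at -1.09 on the log2 scale (SE 0.54, adjusted p 1.00), and Cd36, at -0.95 (SE 0.48, 95% interval -1.98 to 0.09, adjusted p 1.00), both as epididymal minus mesenteric diet effect. The fold of Cd36 between tissues was thus 6.00 on chow and 3.11 under high fat feeding, without a difference that passed the test. No member passed in limma, edgeR or DESeq2, none had an unadjusted p under 0.05 in limma (4.71% of all genes did), and 0.0045% of all genes (1 gene) were called.

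Ratios between genes of a library do not depend on its scaling and were described without a test, since they were chosen with the values known. Cd36 to Gpihbp1 was 0.464 to 1.12 in NC Mes and 1.32 to 1.53 in HFD Mes, without overlap. In epididymal fat it was 1.68 to 2.20 on chow and 2.19 to 2.92 under high fat feeding, with a slight overlap. Lpl to Gpihbp1, the lipase over its anchor, was 0.216 to 0.254 in NC Epi and 0.342, 0.888 and 1.41 in HFD Epi libraries B, C and A. In mesentery it stayed between 0.0184 and 0.107. Meox2 to Tcf15 was 0.0520 to 0.210 in the 6 mesenteric libraries and 0.530 to 0.789 in the 6 epididymal ones, without overlap between tissues. Against Cdh5, the endothelial cadherin, Gpihbp1 was 8.03 to 10.5 in mesentery and 14.0 to 21.3 in epididymal fat, again without overlap. Cd36 to Cdh5 was 3.87 to 9.65 in NC Mes, 12.3 to 14.5 in HFD Mes, 28.9 to 35.8 in NC Epi and 30.6 to 52.4 in HFD Epi. The diet groups of mesentery did not overlap in that ratio, and those of epididymal fat did.

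**Figure D4:**
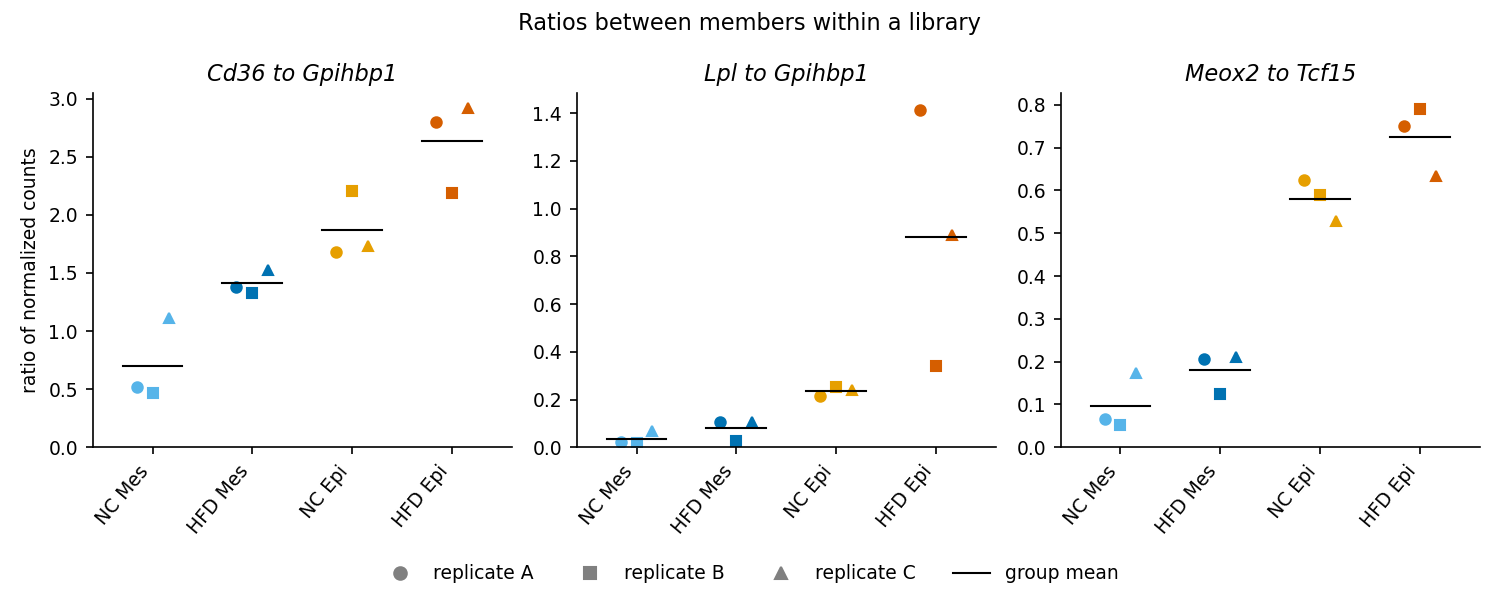
Ratios of normalized counts between pairs of the genes within each library, by tissue and diet, with group means as bars and axes from 0. Meox2 to Tcf15 lies at 0.530 to 0.789 in epididymal libraries and at 0.0520 to 0.210 in mesenteric ones.

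Genes whose levels moved most like Cd36 over the 12 libraries, among 10189 genes compared, were Tppp3 (r 0.988), Aqp7 (0.984), Dbi (0.983), Higd1b (0.981) and Ehd1 (0.976). Aqp7 is a glycerol channel of capillary endothelium and fat, and Dbi binds acyl-CoA. Within the 6 mesenteric libraries these r values were 0.829 to 0.962, and within the 6 epididymal ones 0.579 to 0.950. Genes most like Gpihbp1 were Galnt15 (r 0.973), Cd320 (0.966), Atp5j (0.948), Gpx4 (0.948) and Fam89a (0.944). For Galnt15 r was 0.979 within mesentery and 0.974 within epididymal fat. These are descriptions over libraries that share the tissue difference and their scaling.

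Among the genes themselves, 57 pairs could be compared within the 6 libraries of a tissue, namely those in which both genes had overlapping diet groups. The highest r was that of Gpihbp1 and Tcf15 in epididymal fat, 0.986 (rho 0.943, exact permutation p 0.00972 for r, two-sided, and 0.0167 for rho), with an adjusted p of 0.222 over the 57 pairs. Without the 2 libraries farthest from the median of Gpihbp1, r was 0.339, so the high r depended on those libraries. Leaving out extremes can itself lower r. HFD Epi A and C were the lowest epididymal libraries for both genes. They were also lowest in mean log2 of the endothelial markers (11.3 and 11.7), whose part was not tested. The pairs Tcf15 and Meox2 (r 0.932, rho 0.829) and Gpihbp1 and Meox2 (r 0.916, rho 0.771) in epididymal fat had the same adjusted p and fell to r 0.388 and 0.0188 without such libraries. In mesentery Gpihbp1 and Slc27a3 gave r 0.920 (rho 0.886, exact permutation p 0.0194 and 0.0333, adjusted p 0.222), and r 0.969 without the 2 farthest libraries. Each diet holds 3 of the libraries, too few for a value within a diet. No pair passed the adjustment.

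The other genes of the path were read from 6 lists, also chosen with earlier results of these data known. Among 15 tested genes of fatty acid oxidation, 8 were higher in epididymal fat on chow and 0 lower, against 12.8% of all genes, with a median log2 difference of 0.86 beside -0.08 over all genes. The 4 largest were Slc25a20 (1.18, adjusted p 0.00450), the carnitine carrier, Etfa (1.14, 0.00742) and Etfb (1.01, 0.0454), which pass electrons from the pathway, and Acadm (0.98, 0.0110), a dehydrogenase. Among the high fat libraries 2 of 15, Hadhb (0.71, adjusted p 0.0269) and Hadha (0.75, 0.0250), were higher, against 8.34% of all genes. Over 12 alternatives the chow count was 6 to 11. The high fat count was 0 with columns rescaled to the same total, with edgeR and without the mean-variance trend, and 13 with rescaling to the endothelial markers.

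Of 9 genes of lipid droplets and triglyceride turnover, 4 were higher in epididymal fat on chow, against 12.8% of all genes. They were G0s2 (log2 difference 4.11, adjusted p 1.56e-05), Dgat2 (3.16, 0.00321), Pnpla2 (1.91, 0.000406) and Plin2 (1.61, 0.00882). Plin2, which coats droplets, ranged from 1829 to 2547 normalized counts in NC Mes and from 6001 to 7317 in NC Epi. It was the single gene of that list called for diet in epididymal fat, where it reached 20548 to 35341 (2.06, adjusted p 0.0193). Under high fat feeding Plin2 (2.42, adjusted p 0.000900), G0s2 (1.3, 0.0408) and Pnpla2 (0.92, 0.0470) were higher and Lipe (-1.06, 0.0150), the hormone-sensitive lipase, was lower. That count of 3 higher and 1 lower stood against 8.34% of all genes. It was 1 and 0 with edgeR and without the mean-variance trend, 1 and 1 with the same total, and 6 and 0 with the endothelial rescaling. Dgat2, G0s2 and Plin2 are also expressed by adipocytes, whose marker sums are given above, and Plin2 by macrophages.

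Of 11 tested genes that handle lipoprotein lipase and lipoproteins, 3 were higher on chow, against 12.8% of all genes. They were Angptl4 (log2 difference 4.75, adjusted p 4.01e-06), a circulating inhibitor of the lipase, Lipg (4.04, 0.0489), the endothelial lipase, and Apoe (2.29, 0.000230). Angptl4 ranged from 122 to 222 normalized counts in NC Mes and from 4267 to 5296 in NC Epi. The chow count was 2 in 7 of 12 alternatives, edgeR and the same total among them. Lipg, whose adjusted p lay close to the threshold, was low, at 0 to 36.6 in NC Mes and 39.8 to 203 in NC Epi. In the high fat groups Angptl4 (2.52, adjusted p 0.000725) and Apoe (2.10, 0.000645) were higher, 2 of 11 against 8.34% of all genes. For diet, limma called 1 of the 11 higher in mesentery, against 0.0135% of all genes. In epididymal fat it called 0 for diet, against 0.549%. Of 14 tested genes of other fatty acid transport and binding, Mfsd2a (5.30, adjusted p 0.0351) and Cav1 (1.76, 0.00467) were higher on chow. That count of 2 of 14 lay near the 12.8% of all genes called. Mfsd2a, a lipid transporter best known from brain vessels, was low, at 0 to 19.7 normalized counts in NC Mes and 49.5 to 215 in NC Epi. Cav1, the coat protein of caveolae, had 13158 to 20344 normalized counts in NC Mes and 46056 to 61749 in NC Epi. The chow count over 12 alternatives was 1 to 5 higher and 0 to 2 lower. On the high fat diet 0 of the 14 were called, against 8.34% of all genes, and over the alternatives 0 to 8 were higher and 0 or 1 lower. Of 7 tested genes of fatty acid activation, Dbi (2.13, adjusted p 0.000147) and Acsl1 (1.49, 0.00570) were higher on chow, and Dbi (1.43, 0.00401) and Acsl3 (1.17, 0.0462) under high fat feeding. These were 2 of 7 on each diet, against 12.8% of all genes on chow and 8.34% under high fat feeding. The high fat count was 1 with edgeR, the replicate block, no filter or no trend, and 4 with the endothelial rescaling.

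Regulators of the path went in both directions. Of 17 on chow, 3 were higher in epididymal fat and 5 lower, against 12.8% of all genes called in either direction. The endothelial rescaling gave 5 higher and 3 lower, and edgeR 2 and 2. Vegfb (log2 difference 2.09, adjusted p 0.000983), a growth factor described as a driver of endothelial lipid uptake, Pparg (1.99, 5.18e-05) and Aplnr (0.90, 0.0248) were higher. Pparg had 887 to 935 normalized counts in NC Mes and 2953 to 4047 in NC Epi. Among the lower ones were Flt1 (-2.10, adjusted p 0.000485) and Nrp1 (-1.08, 0.0156), the receptors for VEGF-B, with Meox1 (-2.08, 8.54e-05) and Hey1 (-1.08, 0.0433). Meox1 is the relative of Meox2, and the pair moved oppositely: Meox1 had 2674 to 3384 normalized counts in NC Mes and 599 to 899.9 in NC Epi. With high fat feeding Flt1 (-2.17, adjusted p 0.000576), Meox1 (-2.01, 0.000156), Foxo1 (-1.17, 0.00293) and Nrp1 (-1.14, 0.0169) were lower and 0 of 17 higher, against 8.34% of all genes called. The endothelial rescaling gave 7 higher and 2 lower, and the same total 0 and 7.

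**Figure D5:**
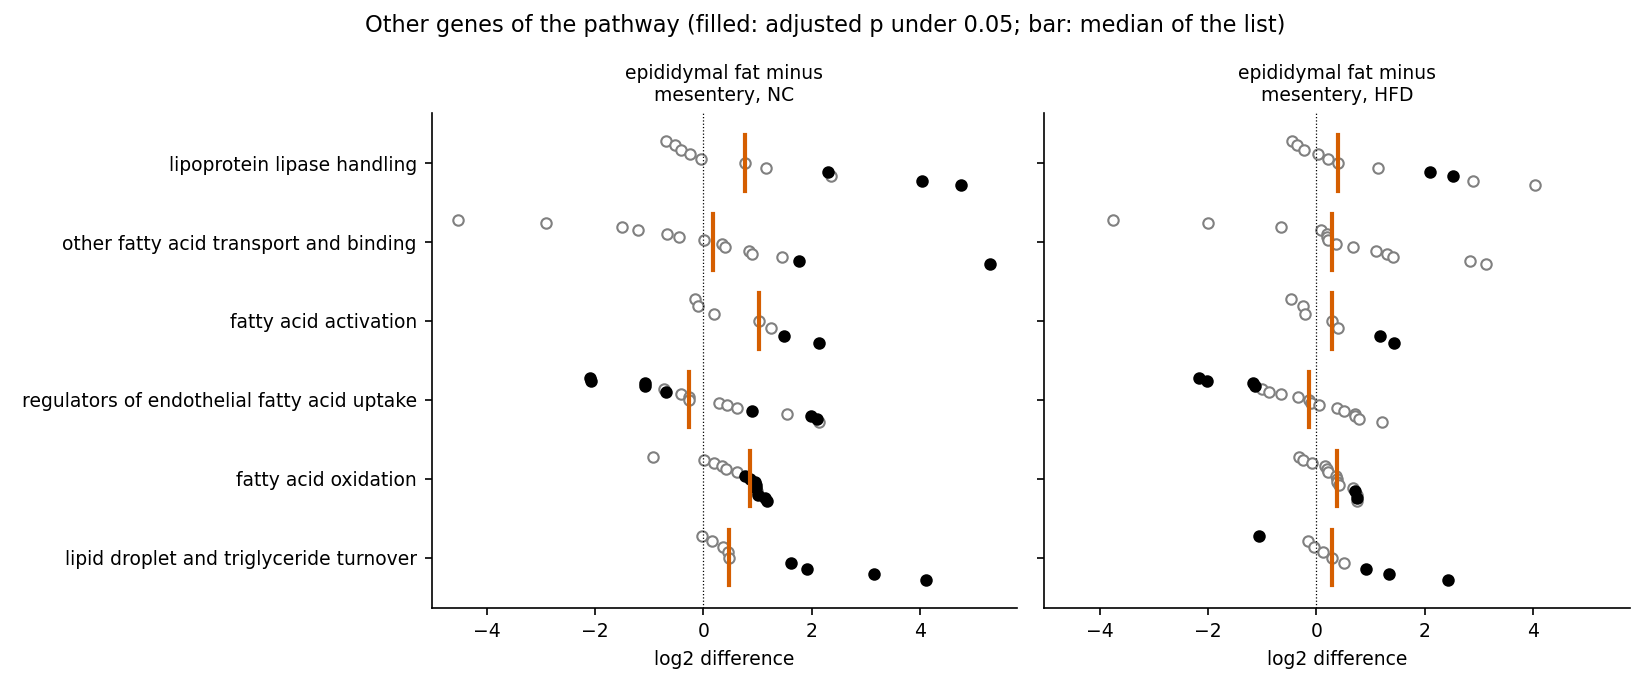
Log2 differences between epididymal fat and mesentery for the other genes of the path in 6 lists, on each diet; filled points have an adjusted p under 0.05 in limma and bars are list medians. Genes of fatty acid oxidation cluster to the right on chow, with 8 of 15 filled, and regulators lie on both sides.

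The description numbers give a further split, 50 to 53 against 87 and 88, which the labels do not explain. With the libraries numbered 50 to 53 alone, 2 a group, the tissue difference of Cd36 was 2.83 on chow and 1.95 under high fat feeding. Lpl gave 4.36 and 4.50, Slc27a1 2.42 and 2.63, Meox2 3.15 and 2.30, and Fabp5 0.79 and 1.44. Each passed the threshold in limma but Fabp5 on chow (adjusted p 0.0820). The numbers 87 and 88 hold 1 library of each group, so they give no test of their own.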

How the data were processed

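The series deposited 1 table of gene values for the 12 libraries. The aligner (STAR 2.7.9a), counter (featureCounts of Subread), build (mm39) and normalization (DESeq2 1.34.0) are named in the submitters' processing notes; annotation and strand setting are not given in the sources used here. The deposited values are a signal, gene counts divided by a size factor of the library: 100% of values were whole multiples of a library step within a relative tolerance of 1e-06. Such scaling assumes that most genes do not differ between libraries. Recovered reads thus gave 8348897 to 25397963 per library.

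Groups came from the sample titles. Genes with a mean of at least 10 were tested with limma 3.58.1 (R 4.3.3, lmFit, eBayes with a trend) on log2(value + 1), 4 group means over 12 libraries, Benjamini-Hochberg within each of 5 contrasts, threshold 0.05; differences on this scale understate changes of low genes. Intervals are at 95%. The fit was tested on simulated data. The 10 genes and the lists were chosen with earlier results of these data known. All 10 genes were named, and of each list at most 4 called genes higher and 4 lower per contrast by size. The ratios, motifs, pairs of genes and shares of groups without overlap were also chosen with values known. Exon-union lengths were tried first; the principal transcript replaced them because the union of Fabp4 looked too long, and both are given. Lengths come from GENCODE M21 and promoters from RefSeq, both on GRCm38, another build than the table's. The promoter windows shown carry GRCm38 coordinates, and coordinates on the table's build are not given. Alternatives covered pseudocounts 0.5 and 5, filters, 2 rescalings, edgeR 4.0.16, DESeq2 1.42.0, the number range, libraries 50 to 53, a replicate block and leaving out each library. A fit without the mean-variance trend was added after seeing the data, because Fabp4 and Gpihbp1 narrowly missed the threshold. Correlations used numpy 2.4.6.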

Additional observations from a re-analysis of the deposited data

How the results depend on the processing

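Tissue calls of Cd36, Lpl, Slc27a1 and Meox2 on chow held in 18 of 18 alternatives, and those of Lpl and Slc27a1 on the high fat diet in 18 of 18. Fabp5 passed in 11 for chow and 17 for the high fat diet, Cd36 in 16 and Meox2 in 12 on the high fat diet, Fabp4 in 8 and 5, and Gpihbp1 in 5 and 3. The count of 5 members on chow was 4 to 7, and with 1 library left out 4 to 5. On the high fat diet, leaving out 1 library gave 2 to 5, the low values being 2 without HFD Mes B and 3 without HFD Epi C; the other alternatives gave 4 to 7. DESeq2 called 1 member for diet in mesentery. The fit without the mean-variance trend, chosen after seeing the data, called Fabp4 on both diets (adjusted p 0.00609 and 0.0225) and lost Fabp5 on chow (0.0801) and Meox2 on the high fat diet (0.0784). A replicate block, with the title letter or description number, gave the same 5 and 5 calls (Cd36 adjusted p 0.00189 and 0.0251); deviations of same-numbered libraries correlated at 0.027, 0.530 and 0.583 on chow and -0.149, 0.146 and -0.115 with the high fat diet, and those of same-lettered libraries across diets at -0.675 to 0.436; not every pair was over 0.1 and not every library correlated best with its own number, so pairing was not shown. Of 960 values under alternatives, 51 changed sign, with 0 past the threshold. Rescaled to the endothelial markers, diet in epididymal fat gave 0.46 for Cd36, 0.40 for Fabp4, 0.42 for Slc27a3, 0.51 for Slc27a4 and 0.17 for Meox2; tissue on chow gave 0.23 for Slc27a4 and 0.33 for Tcf15; tissue on the high fat diet gave 0.36 for Slc27a3, 0.26 for Slc27a4 and 0.40 for Tcf15; the difference of diet effects gave 0.13 for Fabp4, 0.10 for Gpihbp1, 0.029 for Slc27a4 and 0.066 for Tcf15. With libraries 50 to 53, diet in mesentery gave -0.022 for Slc27a4; diet in epididymal fat 0.034 for Cd36, 0.039 for Fabp4, 0.077 for Slc27a3 and 0.10 for Slc27a4; tissue on the high fat diet 0.17 for Tcf15; and the difference of diet effects 0.034 for Fabp4, 0.25 for Gpihbp1, 0.12 for Slc27a4 and 0.39 for Tcf15. With the same total, tissue on chow gave 0.028 for Tcf15, and the difference of diet effects -0.034 for Lpl, -0.14 for Slc27a1 and -0.15 for Slc27a3. edgeR gave 0.0050 for Slc27a4 (diet in epididymal fat) and -0.17 for Slc27a1 (difference of diet effects), where DESeq2 gave -0.11. With 1 library left out, diet in epididymal fat ranged from -0.22 to 0.14 for Cd36, -0.37 to 0.0056 for Fabp4, -0.29 to 0.19 for Slc27a3 and -0.22 to 0.13 for Slc27a4. Tissue on chow ranged from -0.42 to 0.016 for Slc27a4 and -0.25 to 0.22 for Tcf15. The difference of diet effects ranged from -0.41 to 0.68 for Lpl, -0.46 to 0.59 for Slc27a1, -0.060 to 0.45 for Slc27a3 and -0.68 to 0.032 for Tcf15. The cause was not tested.

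Over all genes, calls for diet in mesentery were 3, against 1 with edgeR, 150 with DESeq2, 20 with libraries 50 to 53, 7 with a mean of at least 50 and 5 with the endothelial rescaling. For diet in epididymal fat they were 122, against 29, 563, 31, 600 with the endothelial rescaling and 1 without the trend. On chow 2843 became 4349 with libraries 50 to 53; on the high fat diet 1854 became 1021 with edgeR, 2931 with DESeq2, 1046 without the trend and 6493 with the endothelial rescaling. The difference of diet effects gave 1, and 130 with DESeq2, 11 with libraries 50 to 53, 3 with a mean of at least 50, 2 with the block or the endothelial rescaling and 0 without the trend. The split of higher to lower calls was 1627 to 1216 on chow and 1947 to 947 with the same total; on the high fat diet it was 1092 to 762 and 703 to 1286. With the endothelial rescaling it was 3453 to 545 and 6245 to 248, and the medians over all genes moved to 0.29 and 0.84, to 0.12 and 0.64 for diet in mesentery and in epididymal fat, and to 0.53 for the difference of diet effects. The same total moved them to 0.13 for diet in mesentery, -0.04 for diet in epididymal fat, -0.12 for tissue with the high fat diet and -0.16 for the difference of diet effects. Diet calls in epididymal fat split 93 to 29, 582 to 18 with the endothelial rescaling and 67 to 38 with the same total. The low counts of the SLC27 transporters, down to 41 reads, limit their precision.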
